A study of Mus musculus with 11 samples.

Results

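Ciliary neurotrophic factor (CNTF), the 3 subunits of its receptor and a pair of related ligands were followed in the hypothalamus of male mouse offspring at postnatal day (P) 21. The 6 genes were Cntf, Lif and Clcf1 for the ligands and Cntfr, Lifr and Il6st for the receptor subunits. Every mouse probe whose transcript accession mapped to these genes was taken, whatever its signal, which gave 9 of the 39429 mouse probes on the array: 2 for Cntf, 3 for Lifr and 1 for each of the other genes. All 9 probes were among the 31790 probes bright enough to be tested. The study asked how obesity of the dam changes the hypothalamus of the offspring. The HFD group (n = 6) were offspring of C57BL/6N dams fed a high-fat diet before conception and through gestation and lactation, and the CO group (n = 5, labelled SD) were offspring of dams kept on standard chow for the same time. The labels name no transgene or drug in either group, and sires had standard chow apart from access to the high-fat diet during mating. The sources do not tell whether a sample was a single pup or which litter it came from. By the study's methods no more than 2 offspring of a dam were analysed, and the sample names of CO replicates 1 to 3, and of CO replicates 4 and 5, share a leading number whose meaning is not given. The p-values therefore cover only the spread seen among the 11 arrays.

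CNTF signals through a complex of a ligand-binding subunit, CNTFRα (Cntfr), which is tethered to the membrane by a lipid anchor and has no signalling part of its own, and the signalling subunits LIFRβ (Lifr) and gp130 (Il6st). Bound receptor activates JAK kinases and STAT3 and also the MAPK cascade, and STAT3 in turn raises Socs3, whose product shuts the receptor down. In the brain CNTF is made mainly by glia, CNTFRα mainly by neurons, and CNTF given to animals acts on hypothalamic neurons to lower food intake through a pathway that resembles that of leptin.

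Levels are given as log2 of the background-subtracted spot signal relative to the 75th percentile of its array, so 0 is the signal at that percentile. Differences are HFD minus CO, tested by limma with Benjamini-Hochberg adjustment over all probes and a threshold of 0.05. The groups differed widely: 67.5% of all probes tested were past the threshold, 22.7% higher and 44.8% lower in HFD, and the median difference over all probes was -0.19. The HFD arrays were scanned 337 days apart from the CO arrays, on other slides and with another version of the image-reading protocol, so diet and batch cannot be told apart. From 71.8 to 77.4% of mouse spots were well above background on HFD arrays, and from 82.5 to 85.7% on CO arrays. Spike-in control probes, which bind RNA added to the samples, were 0.66 higher on HFD arrays on the log2 scale, and scaling to them lowers every difference by that amount and brings the median difference to -0.85. Among hypothalamic marker genes, 10 of 12 were well above background on all 11 arrays. The others differed between the groups, with Sim1 well above background on 6 HFD and 0 CO arrays and Otp on 1 HFD and 5 CO arrays. Of the 12 genes, 3 were higher and 1 lower in HFD. Counts of marker genes below are by brightest probe, a measure by which 21.3% of all genes tested were higher and 45.5% lower in HFD.

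The direction of change differed between the members. Transcripts of Cntfr fell in HFD offspring (a log2 difference of -2.99), and those of Il6st differed by -0.02. Those of Lif and of the brightest Lifr probe were higher by 2.47 and 1.02. Lif was dim and did not pass with normexp background correction (0.76, adjusted p = 0.181 from limma). The remaining Lifr probes gave 0.24 and -0.27. Both Cntf probes were higher, by 0.54 and 0.82, although with spike-in scaling the first turned to -0.12 and the second stood at 0.15, neither past the threshold.

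Promoter sequence was examined because STAT3, the transcription factor below this receptor, binds the letters TTCNNNGAA. In the RefSeq promoter table (build GRCm38.p6), 5 of the 6 genes had an entry, with 11 windows of 250 bases before a start site between them, and Clcf1 is named only. The motif, which reads as itself on the opposite strand, was in 0 of these 11 windows and in 7.02% of all 32851 windows of the table. It was found in the window of Socs3, the feedback gene, with its first base 154 bases before the start site. The Socs3 window lies inside the longest model of that gene, so it may overlap an exon or intron of a longer transcript. The 30 bases around the motif are shown with the motif in capitals (chr11:117969502-117969531, minus strand).
Socs3: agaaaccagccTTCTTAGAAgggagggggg
For comparison, the windows of 4 members are shown in full, with no capitals because no motif was found. They are those of Cntfr (chr4:41696038-41696287, minus strand, the entry farthest upstream of 6, which still lies inside the longest model of the gene), Cntf (chr19:12765633-12765882, minus strand), Lif (chr11:4257318-4257567, plus strand) and Il6st (chr13:112463820-112464069, plus strand).
Cntfr: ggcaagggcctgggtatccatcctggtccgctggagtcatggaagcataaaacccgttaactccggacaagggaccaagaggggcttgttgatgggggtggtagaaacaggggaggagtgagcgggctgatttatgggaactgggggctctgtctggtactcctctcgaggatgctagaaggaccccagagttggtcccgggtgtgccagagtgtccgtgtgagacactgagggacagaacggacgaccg
Cntf: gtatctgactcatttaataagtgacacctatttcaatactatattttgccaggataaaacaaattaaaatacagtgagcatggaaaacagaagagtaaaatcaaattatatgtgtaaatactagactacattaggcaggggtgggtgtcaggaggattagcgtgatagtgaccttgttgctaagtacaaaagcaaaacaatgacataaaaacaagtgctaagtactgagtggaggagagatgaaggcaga
Lif: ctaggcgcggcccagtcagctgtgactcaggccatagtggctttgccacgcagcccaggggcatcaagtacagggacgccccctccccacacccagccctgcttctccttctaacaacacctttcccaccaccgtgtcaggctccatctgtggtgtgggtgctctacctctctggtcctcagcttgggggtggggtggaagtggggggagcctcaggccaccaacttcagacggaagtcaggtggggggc
Il6st: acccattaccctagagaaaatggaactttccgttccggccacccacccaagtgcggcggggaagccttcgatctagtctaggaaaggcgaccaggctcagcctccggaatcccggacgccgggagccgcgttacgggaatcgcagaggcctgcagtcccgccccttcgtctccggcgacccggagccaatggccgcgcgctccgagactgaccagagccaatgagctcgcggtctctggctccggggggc
The windows differed in base content. G or C made up 58.8% of the Cntfr window, 35.6% of the Cntf window, 63.6% of the Lif window and 66% of the Il6st window. CG dinucleotides numbered 10, 1, 6 and 26 in the same order, against a median of 6 over all windows. The Cntfr windows not shown varied, with 3 to 37 CG dinucleotides and 54.4 to 78.4% G or C. A match or its lack describes these letters only.

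Cntfr, the subunit that gives the complex its specificity for CNTF, had the largest difference of the 9 probes. In HFD samples its level was lowest at -2.79, with a median of -2.53 and a highest value of -2.27. In CO samples it was 0.40, 0.64, 0.29, 0.47 and 0.53. Each HFD sample lay below each CO sample by a wide margin, and the probe was well above background on all 11 arrays. Before scaling, the HFD arrays read 445 to 672 intensity units and the CO arrays 2849 to 3899, so the fall was present there as well. The log2 difference was -2.99 (standard error 0.10, 95% interval -3.22 to -2.76, adjusted p = 1.25e-08 from limma), and CO samples had 7.94-fold more signal. Only 35 of the 31790 probes tested had a larger decrease. The Rank Product test of the study's methods, at a percentage of false positives below 0.001, also called it. Across quantile, median and spike-in scaling and normexp background correction, the difference ran from -3.65 to -2.75. No second probe was matched to this gene, so the fall rests on 1 probe. In tissue RNA, fewer cells of a type and less RNA per cell cannot be told apart. Of 8 neuronal marker genes, 5 were higher in HFD and 0 lower, where 21.3% of all genes tested were higher and 45.5% lower. Their summed level is the sum of their signals, each relative to the 75th percentile. It was 162 to 181 in HFD samples and 123 to 139 in CO samples. With spike-in scaling the differences of these 8 genes ran from -0.75 (Rbfox3) to 0.67 (Map2), and those of Map2 and Elavl4 (0.03) were the only ones above 0. Striatal markers were lower for 8 of 10 genes, against 45.5% of all genes tested. Their summed levels were 14.8 to 40.6 in HFD and 22.3 to 120 in CO samples. The part of either cell type in the Cntfr result was not tested.

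Lifr, the signalling subunit shared by CNTF, LIF and several relatives, was measured by 3 probes that disagreed. On the brightest, A_55_P2159259, HFD samples had levels of 0.65 at the lowest, 0.89 at the median and 1.21 at the highest. CO samples had -0.22, -0.36, -0.10, 0.30 and -0.15. All HFD samples were above all CO samples, and CO replicate 4 came closest. The difference was 1.02 (standard error 0.13, adjusted p = 2.92e-05 from limma), a 2.02-fold higher signal in HFD, and it stood at 0.35 with an adjusted p of 0.0302 after spike-in scaling. The Rank Product test did not call it, with a percentage of false positives of 0.031.

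The second Lifr probe, A_55_P2159264, is annotated to another transcript accession of the gene. Its levels in HFD samples were -4.19 at the lowest, -3.98 at the median and -3.81 at the highest. CO samples had -4.24, -4.29, -4.22, -4.21 and -4.23. The groups did not overlap, but the CO values had an SD of 0.029 (n = 5) and the gap to the lowest HFD sample was small. The difference was 0.24 (standard error 0.073, adjusted p = 0.0114 from limma), and it became -0.42 (adjusted p = 0.000428) with spike-in scaling. The third probe, A_51_P113182, carries the same accession as the brightest one. HFD samples had -4.81 at the lowest, -4.46 at the median and -4.28 at the highest, against -4.44, -4.13, -4.25, -3.94 and -4.36 in CO samples. These groups overlapped, and the difference of -0.27 did not pass the threshold (standard error 0.12, adjusted p = 0.0608 from limma). It passed when CO replicate 1, HFD replicate 3 or HFD replicate 4 was left out, at -0.33, -0.31 and -0.32. Where on the transcript each probe binds was not analysed here. Of 6 endothelial and pericyte markers, cells in which LIF receptors are also found, 4 were higher and 2 lower in HFD, with summed levels of 8.97 to 10.9 in HFD and 10.3 to 12.2 in CO samples, and their part in the Lifr values was not tested.

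Il6st, which encodes gp130, the signalling subunit common to the whole cytokine family, differed least. Its level in HFD samples was -0.05 at the lowest, 0.02 at the median and 0.16 at the highest. CO samples had 0.06, -0.01, 0.06, 0.17 and -0.01. The groups covered nearly the same range. The difference was -0.02 (standard error 0.062, adjusted p = 0.837 from limma), and its 95% interval of -0.15 to 0.12 corresponds to ratios of HFD over CO from 0.901 to 1.09. Because the HFD arrays were brighter as a whole, the unscaled signal was 3037 to 3661 intensity units in HFD and 2125 to 3173 in CO samples, and with spike-in scaling the difference was -0.68 (adjusted p = 2.66e-05).

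Cntf, the ligand after which the receptor is named, was measured by 2 probes that moved together. On the brighter one, A_55_P2086949, levels in HFD samples were -1.22 at the lowest, -1.10 at the median and -0.99 at the highest. CO samples had -1.68, -1.73, -1.42, -1.37 and -2.02. No CO sample reached the HFD range, and the CO samples were spread more widely, with an SD of 0.26 (n = 5) against 0.08 in HFD (n = 6). The difference was 0.54 (standard error 0.11, adjusted p = 0.00101 from limma), a 1.45-fold higher signal in HFD that turned to -0.12 (adjusted p = 0.391) with spike-in scaling.

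The second Cntf probe, A_55_P2005275, gave levels of -2.60, -2.47 and -2.35 in HFD samples (lowest, median and highest). The CO samples were at -3.25, -3.53, -2.99, -3.07 and -3.64. The groups again did not overlap, and the CO replicates kept nearly the same order as on the first probe. The difference was 0.82 (standard error 0.12, adjusted p = 9.76e-05 from limma), and it was 0.15 (adjusted p = 0.300) with spike-in scaling. In the RefSeq table Cntf lies wholly inside Gm44505, a transcript that runs on from the neighbouring gene Zfp91 into Cntf, so signal of the 2 probes may come from either transcript. Zfp91 had a level of -2.87 ± 0.08 in HFD (SD, n = 6) and -3.21 ± 0.24 in CO samples (SD, n = 5), with groups that overlapped. Its difference was 0.34 (standard error 0.10, adjusted p = 0.0113 from limma), and -0.32 with spike-in scaling. Among markers of astrocytes, a main source of CNTF, 2 of 10 genes were higher and 2 lower in HFD, against 21.3% and 45.5% of all genes tested. The summed level was 185 to 213 in HFD and 197 to 261 in CO samples. Other probes of Aqp4 (0.86) and Slc1a2 (0.47 and 0.98), whose brightest probes were not called, were higher and past the threshold. Those of Gfap (-1.56 and -0.88) were lower, and that of Fgfr3 (-0.25) did not pass. Markers of meninges and Schwann cells, which also make CNTF, had 1 gene higher and 1 lower of 6, with summed levels of 3.73 to 8.08 in HFD and 5.25 to 8.10 in CO samples. The part of either cell type in the Cntf values was not tested.

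Lif, leukaemia inhibitory factor, binds Lifr and gp130 without Cntfr and is scarce in resting brain. The processed signal was 55.8 intensity units at the lowest, 111 at the median and 122 at the highest in HFD samples. CO samples had 6.5, 16, 12.7, 15.8 and 22.1 units. All 6 HFD samples were above all 5 CO samples, though CO replicate 1, the only one of these arrays on its slide, was not well above background and HFD replicate 1 was at the low end of its group. On the log2 scale the levels were -5.83, -4.88 and -4.65 in HFD (lowest, median and highest) and -8.44, -7.27, -7.51, -7.48 and -6.60 in CO samples. The difference was 2.47 (standard error 0.30, adjusted p = 2.26e-05 from limma), a 5.56-fold higher signal in HFD with a 95% interval of 3.55- to 8.71-fold. Of all probes tested, 398 had a larger increase, and the Rank Product test called it as well. With normexp background correction, which adds an offset of 50 units to every spot, the difference was 0.76 and no longer passed (adjusted p = 0.181).

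Clcf1, cardiotrophin-like cytokine factor 1, is a second ligand of the CNTF receptor. Its processed signal was 29.9 units at the lowest, 41.8 at the median and 61.6 at the highest in HFD samples, against 41.9, 55.6, 50.9, 65.5 and 59.7 units in CO samples. These signals were low in both groups. Relative to the 75th percentile the levels were -6.73, -6.30 and -5.63 in HFD (lowest, median and highest) and -5.76, -5.47, -5.51, -5.43 and -5.16 in CO samples. The groups overlapped, since HFD replicate 3 lay above CO replicate 1. In limma the difference was -0.75 (standard error 0.17, adjusted p = 0.00244). It became -0.35 with quantile normalization (adjusted p = 0.0467) and -0.28 with normexp correction (adjusted p = 0.670). The Rank Product test did not call it. In the RefSeq table Clcf1 overlaps a pair of other transcripts, LOC102631992 and Gm45928, which the probe may also detect.

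**Figure D1:**
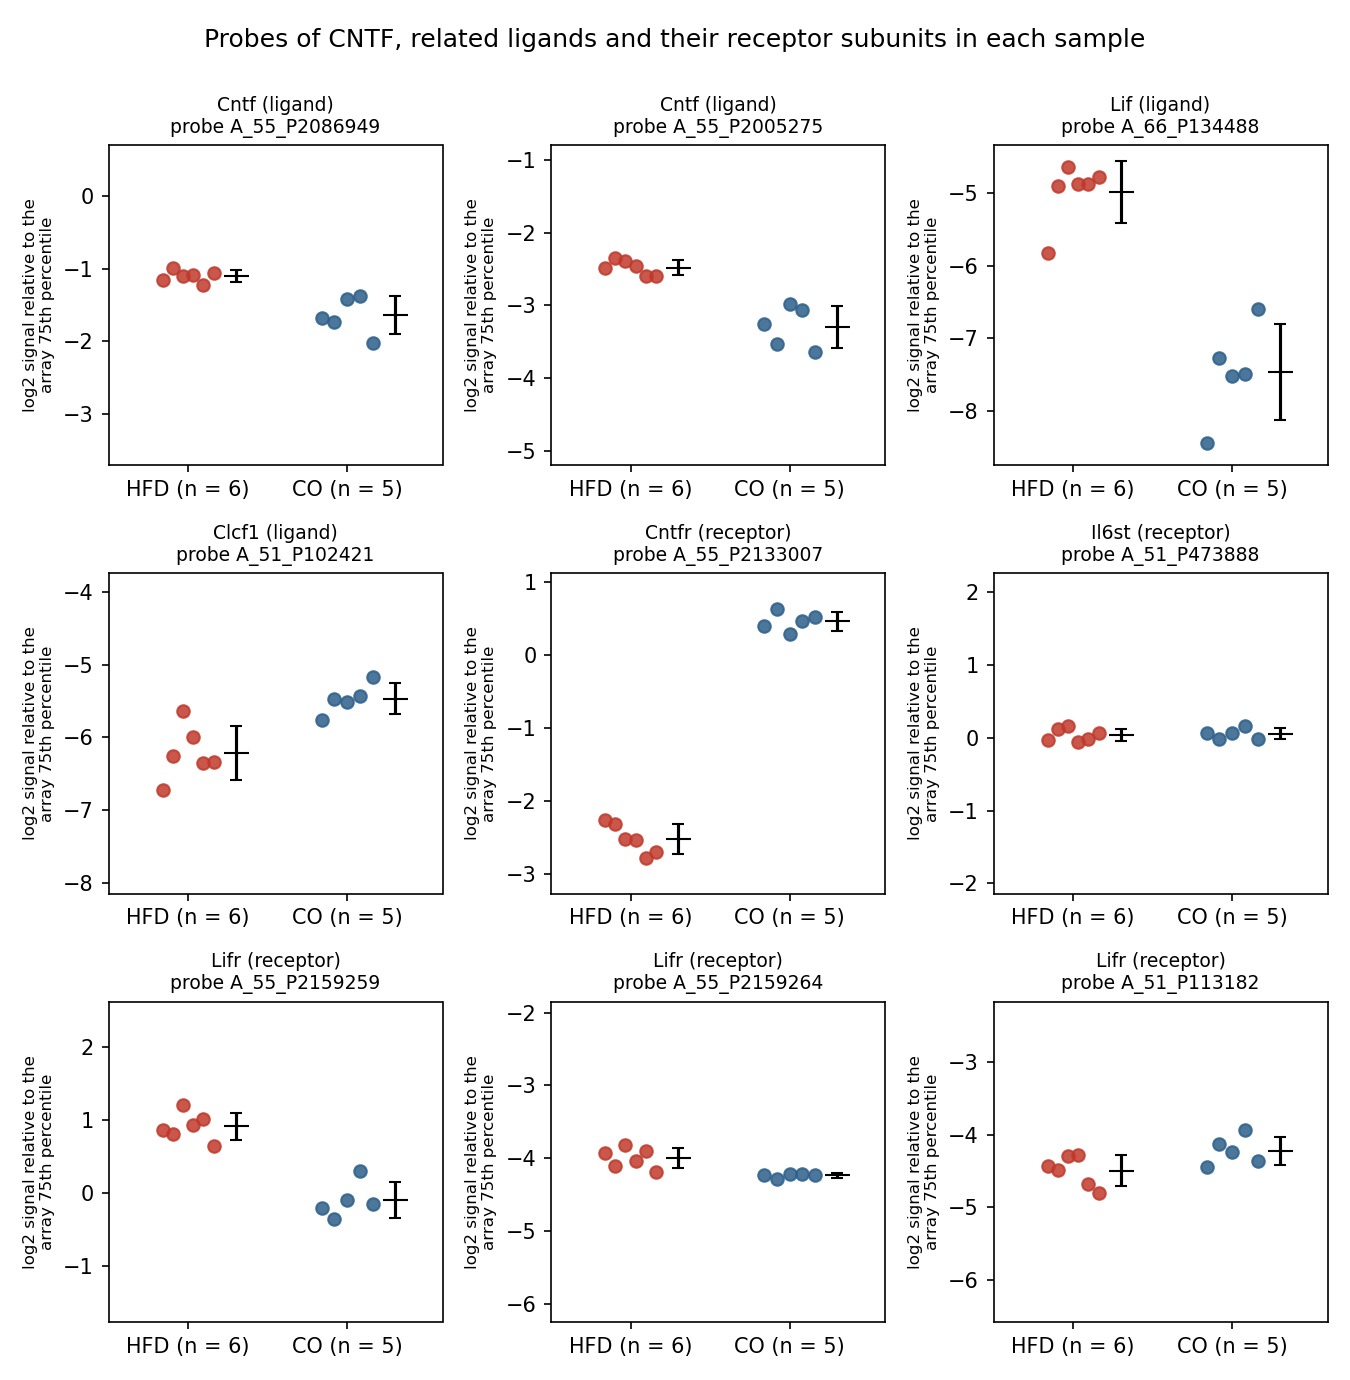
Level of each of the 9 probes in each sample, as log2 signal relative to the 75th percentile of the array (vertical axis, the same span of log2 units in each panel), for HFD (red, left, n = 6) and CO (blue, right, n = 5), with mean and SD in black. HFD samples sit below CO samples for Cntfr and above them for both Cntf probes, Lif and the first 2 Lifr probes, while the groups overlap for Clcf1, Il6st and Lifr probe A_51_P113182.

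Counted together, 7 of the 9 probes passed the threshold, 5 higher and 2 lower in HFD, set against 67.5% of all probes tested. Over all probes, 22.7% were higher and 44.8% lower. For 6 of the 9 probes the groups did not overlap, against 48.7% of all probes. Both shares are close to the background, and nothing is read from them about the genes as a group. By its brightest probe, each of 3 genes was higher (Cntf, Lifr and Lif), 2 were lower (Cntfr and Clcf1) and 1 did not pass (Il6st), with a median difference of 0.26 against -0.19 over all 17188 genes tested. With the spike-in probes as the scale, 2 of the 9 probes were higher and 5 lower. On that scale, 2238 of all 31790 probes tested were higher and 25645 lower. The Rank Product test called 1 probe higher (Lif) and 1 lower (Cntfr), where it called 2.8% of all probes higher and 2.03% lower.

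**Figure D2:**
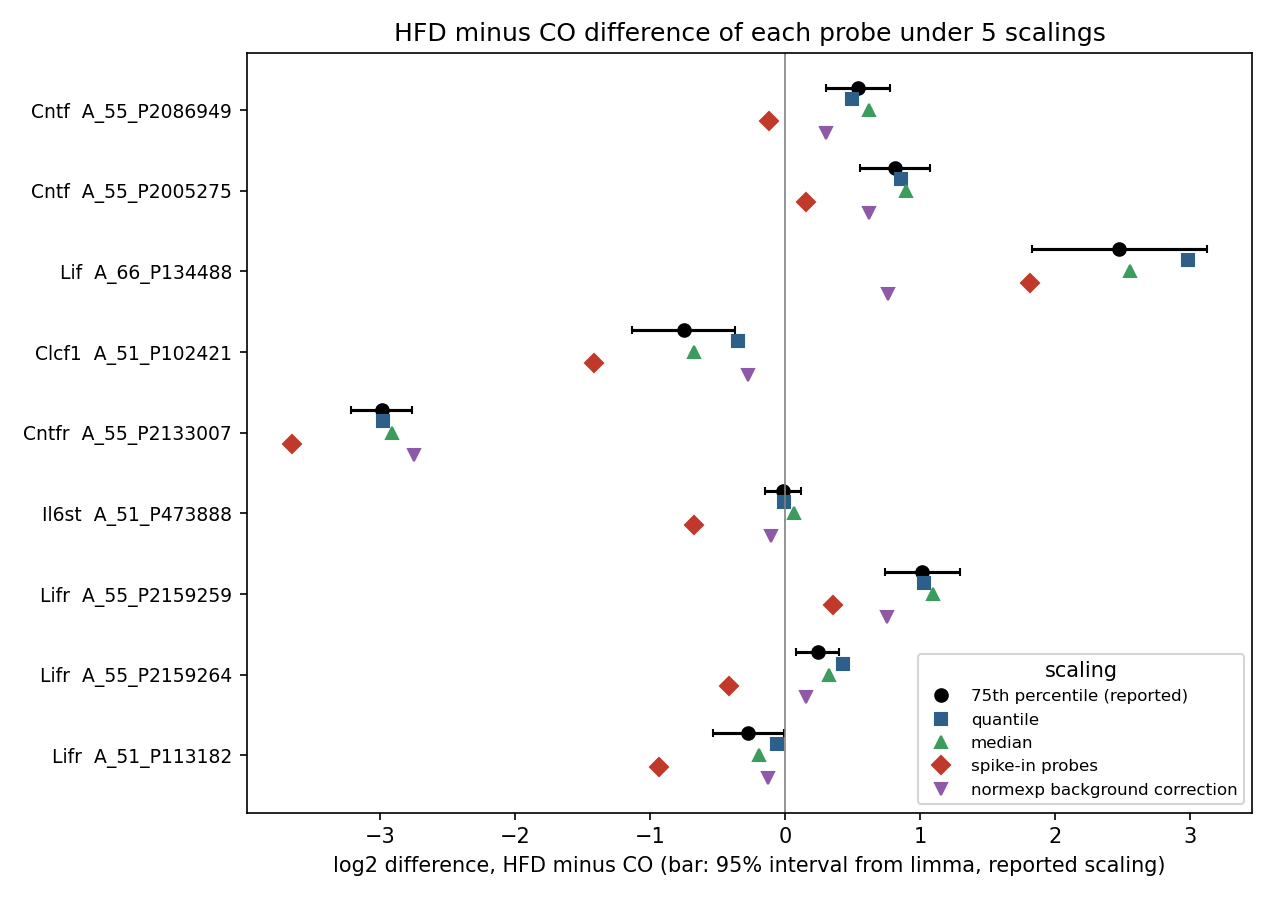
Log2 difference HFD minus CO (horizontal axis) of each probe with the scaling reported in the text (black, with the 95% interval from limma) and with 4 other settings (coloured symbols). Cntfr stays between -3.65 and -2.75 and Lif above 0 in each, while spike-in scaling moves each probe to the left by 0.66 and takes 1 Cntf probe and 1 Lifr probe below 0.

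A comparison that does not depend on scaling between arrays sets 2 probes against each other on the same array. All 15 pairs of the 6 genes, by their brightest probes, and the 4 pairs of probes of the same gene were compared. Exact permutation tests were used (two-sided, adjusted over the 19 pairs). The smallest p that 6 HFD against 5 CO arrays can give is 0.00216, which is 0.00316 after adjustment, and 13 of the 19 pairs reached it. Adjusted p was under 0.05 for all 19 pairs, the 4 of the same gene among them. The 2 probes of each pair thus changed by unequal amounts under any scaling that shifts a whole array. How many pairs of other probes would pass was not computed, and 67.5% of all probes tested were called singly. Nothing is therefore read from the count about the members.

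Between the receptor subunits, Cntfr minus Lifr was lower in HFD by a log2 difference of -4.01 (95% interval -4.42 to -3.59) and Cntfr minus Il6st by -2.97 (-3.24 to -2.71). Lifr minus Il6st was higher by 1.03 (0.77 to 1.29), and each of these 3 had an adjusted p of 0.00316 in the exact permutation test. The array ratio of ligand-binding to signalling subunits was lower in each of the 6 HFD samples than in any CO sample, for Lifr as for Il6st. Between ligand and receptor, Cntf minus Cntfr was higher in HFD by 3.53 (3.16 to 3.90). Cntf minus Il6st was higher by 0.55 (0.35 to 0.76, adjusted p = 0.00316 in the exact permutation test). Relative to Il6st on the same array, Cntf and the brightest Lifr probe were thus higher in HFD. The other Lifr probes were not set against Il6st, and A_51_P113182 had a difference of -0.27 where Il6st had -0.02. Among ligands, Lif minus Clcf1 was higher by 3.23 (2.73 to 3.72) and Cntf minus Lif lower by -1.94 (-2.79 to -1.08), the last with overlapping groups. With normexp correction, 6 of the pairs between genes that contain Lif or Clcf1 no longer passed.

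The probes of the same gene also changed by unequal amounts. For Cntf, the brighter probe minus the dimmer one was lower in HFD by -0.28 (-0.40 to -0.16, exact permutation test, adjusted p = 0.00514). For Lifr, the brightest probe minus A_51_P113182 was higher by 1.29 (1.03 to 1.54) and minus A_55_P2159264 by 0.77 (0.55 to 1.00), although the first of these pairs carries a single transcript accession. After the group means were taken off, the levels of the 2 Cntf probes correlated at 0.90 over the 11 arrays, those of the brightest Lifr probe at 0.69 with A_55_P2159264 and at 0.61 with A_51_P113182. These correlations are descriptions over arrays that share their scaling.

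**Figure D3:**
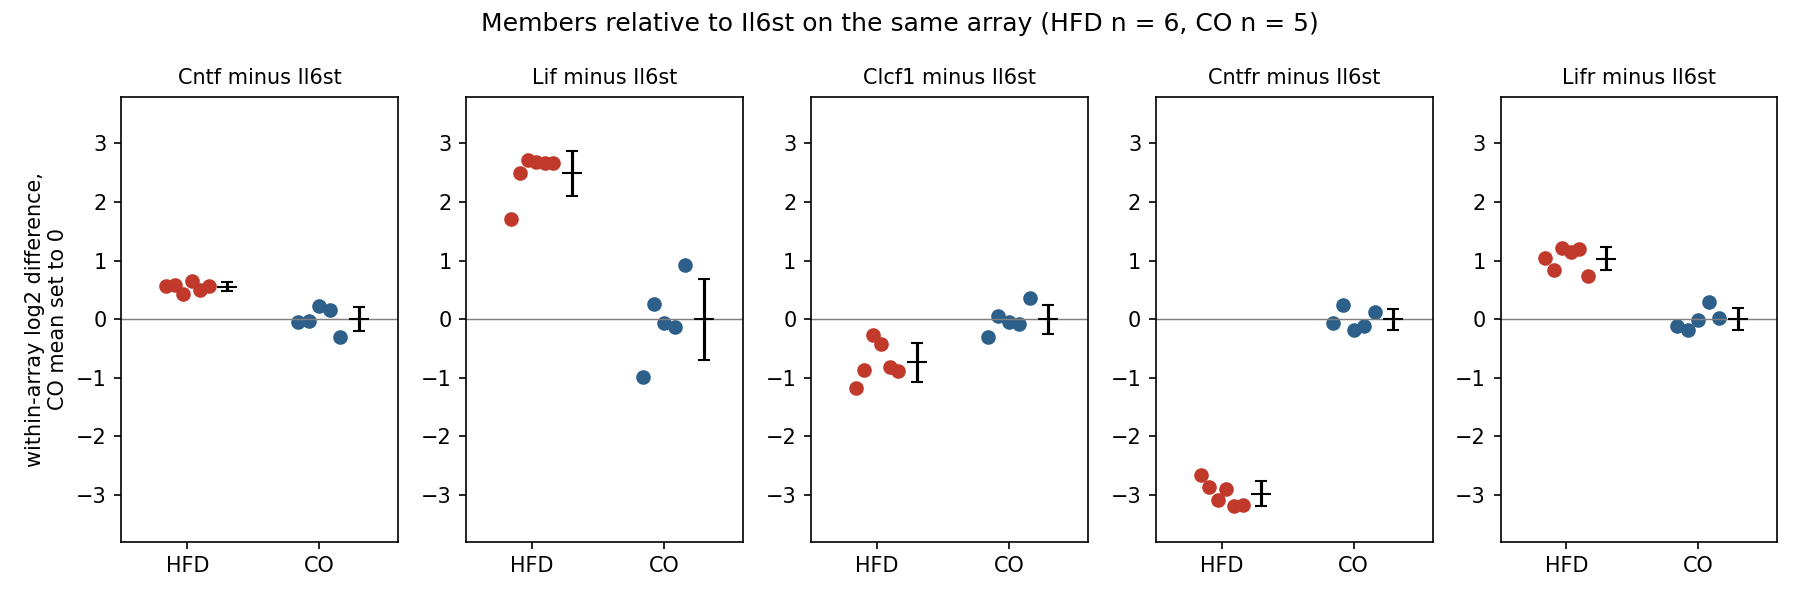
Log2 difference between the brightest probe of each member and the Il6st probe on the same array (vertical axis, CO mean set to 0), in HFD (red, left, n = 6) and CO samples (blue, right, n = 5), with mean and SD in black. Relative to Il6st, the brightest probes of Cntf, Lif and Lifr lie higher and that of Cntfr lower in HFD with no overlap. That of Clcf1 lies lower with overlap.

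The other genes of the pathway were described from 5 lists of 50 genes, of which 49 were measured by a probe that could be tested. Taken by the brightest probe, 12 were higher and 25 lower in HFD and 12 did not pass, which is 75.5% called against 66.8% of all genes tested (21.3% higher and 45.5% lower). With spike-in scaling, 1 was higher (Sos1) and 45 lower. That scaling called 89.3% of all genes tested, with a median difference of -0.85, so nothing is read from this count about the pathway. Of the 10 genes with other tested probes, 0 had probes called in opposite directions.

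Among the other cytokines that use gp130, 5 of 6 were lower in HFD and 0 higher, against 45.5% and 21.3% of all genes tested. Their median difference was -0.72. Osm, oncostatin M, a product of myeloid cells, had a level of -6.95 ± 0.47 in HFD (SD, n = 6) and -5.41 ± 0.24 in CO samples (SD, n = 5), a difference of -1.54 (adjusted p = 6.43e-05 from limma), and it was well above background on 4 of the 6 HFD arrays. Ctf2, which encodes cardiotrophin-2, differed by -1.53 (adjusted p = 6.78e-06), Il27 by -0.88 (adjusted p = 1.57e-05) and Il11 by -0.56 (adjusted p = 0.000101), each without overlap between the groups. The unscaled signals of Il11 overlapped, at 137 to 186 units in HFD and 149 to 183 in CO samples. With normexp correction Osm, Ctf2 and Il11 no longer passed. The probe of Il6, interleukin 6, was well above background on 0 of the 11 arrays and was not tested. Microglial markers were lower for 5 and higher for 2 of 8 genes, against 45.5% and 21.3% of all genes tested. Their summed levels were 16.7 to 20.04 in HFD and 22.8 to 27.3 in CO samples, and their part in the values of Osm was not tested. Of the higher markers, Cx3cr1 (0.21) had another probe that was lower by -0.61 (adjusted p = 1.71e-05 from limma). The other probes of Csf1r (-1.32 and -0.88) were lower, as its brightest was.

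Of the 4 other receptors in this family, 2 were higher and 2 lower. Osmr, the oncostatin M receptor, which pairs with gp130 as Lifr does, was higher by 0.43 (adjusted p = 0.0029 from limma) and Il6ra, which binds interleukin 6, by 0.33 (adjusted p = 0.00641), and with spike-in scaling these differences were -0.23 and -0.34. Il27ra was lower by -1.40 (adjusted p = 9.22e-05) and Il11ra1 by -0.45 (adjusted p = 0.000545). Il27ra was dim, at 16 to 36 intensity units in HFD and 42 to 63 in CO samples, and Il11ra1 was bright, at 18301 to 22971 units in HFD and 17831 to 22652 in CO samples, so its unscaled signals overlapped. Its difference stayed below 0 and past the threshold with quantile (-0.37), median (-0.37) and spike-in scaling (-1.11) and with normexp correction (-0.45). With normexp correction Il27ra, Osmr and Il6ra did not pass.

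In the list of JAK, STAT and adaptor genes, 6 of 11 were higher and 3 lower in HFD, against 21.3% and 45.5% of all genes tested. Their median difference was 0.18. Jak1, the kinase that gp130 needs most, was at 2.05 ± 0.12 in HFD (SD, n = 6) and 1.64 ± 0.10 in CO samples (SD, n = 5), a difference of 0.41 (adjusted p = 0.000458 from limma) that became -0.25 with spike-in scaling. Jak2 was higher by 0.88 (adjusted p = 7.63e-05) and Sos1, an exchange factor that links receptors to Ras and the MAPK cascade, by 1.02 (adjusted p = 8.42e-05), and with spike-in scaling they stood at 0.22, which did not pass, and 0.36. Stat3 was at 1.37 ± 0.09 in HFD (SD, n = 6) and 1.19 ± 0.14 in CO samples (SD, n = 5). Its difference of 0.18 only just passed (adjusted p = 0.0457 from limma), the groups overlapped, a second probe gave -0.10 (adjusted p = 0.293), and spike-in scaling gave -0.48. Leaving out single samples gave 0.16 to 0.24, and the call was lost except without CO replicate 2 or without HFD replicate 1. It was also lost with normexp correction (0.19, adjusted p = 0.0837 from limma), with no filter on dim probes (adjusted p = 0.0517), with the replicate block (0.18, adjusted p = 0.129) and when its probes were averaged (0.04, adjusted p = 0.553). Tyk2 was lower by -0.55 (adjusted p = 0.000205).

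Among the feedback genes, 3 of 11 were higher and 5 lower, and the median of -0.19 equalled that of all genes. Socs3, the inhibitor whose promoter stretch is shown above, was at -2.16 ± 0.20 in HFD (SD, n = 6) and -1.61 ± 0.21 in CO samples (SD, n = 5). The groups did not overlap and the difference was -0.55 (standard error 0.12, adjusted p = 0.00167 from limma). The unscaled signals overlapped, at 586 to 884 units in HFD and 641 to 1026 in CO samples, and with normexp correction the difference was -0.30 (adjusted p = 0.108). Pias3, an inhibitor of STAT3, was lower by -1.08 (adjusted p = 3.45e-05) and did not pass with normexp correction (-0.43). Ptpn2, a phosphatase that acts on JAK1 and STAT3, was higher by 0.80 (adjusted p = 7.33e-05) and by 0.69 and 1.66 on its other probes, and Pias1, of the same family as Pias3, was higher by 0.34 (adjusted p = 0.00168). With spike-in scaling Ptpn2 stood at 0.14, which did not pass, and Pias1 at -0.32.

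Of 17 genes known as targets of STAT3, 10 were lower and 1 higher in HFD, where 45.5% of all genes tested were lower and 21.3% higher. The median was -0.41, against -0.19 over all genes. With normexp correction fewer of the 17 were called, as were fewer of all genes (38.5% against 66.8%). Gfap, the astrocyte filament gene that CNTF is known to raise, was at 1.21 ± 0.26 in HFD (SD, n = 6) and 2.54 ± 0.09 in CO samples (SD, n = 5), without overlap, and the difference of -1.33 (adjusted p = 2.81e-06 from limma) was -1.56 and -0.88 on its other probes. Junb, an early-response transcription factor gene, was lower by -1.37 (adjusted p = 2.45e-05), Serpina3n, a gene of reactive astrocytes, by -0.91 (adjusted p = 0.000304) and Pim1, a kinase gene, by -0.62 (adjusted p = 0.000162), each without overlap. The unscaled signals overlapped for Serpina3n, at 295 to 506 units in HFD and 465 to 782 in CO samples. They also overlapped for Pim1, at 87 to 119 units in HFD and 103 to 144 in CO samples. Junb and Pim1 did not pass with normexp correction (-0.80 and -0.32), while the call of Gfap was kept. Genes of this list have other regulators besides STAT3, and Gfap also stands among the astrocyte markers.

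**Figure D4:**
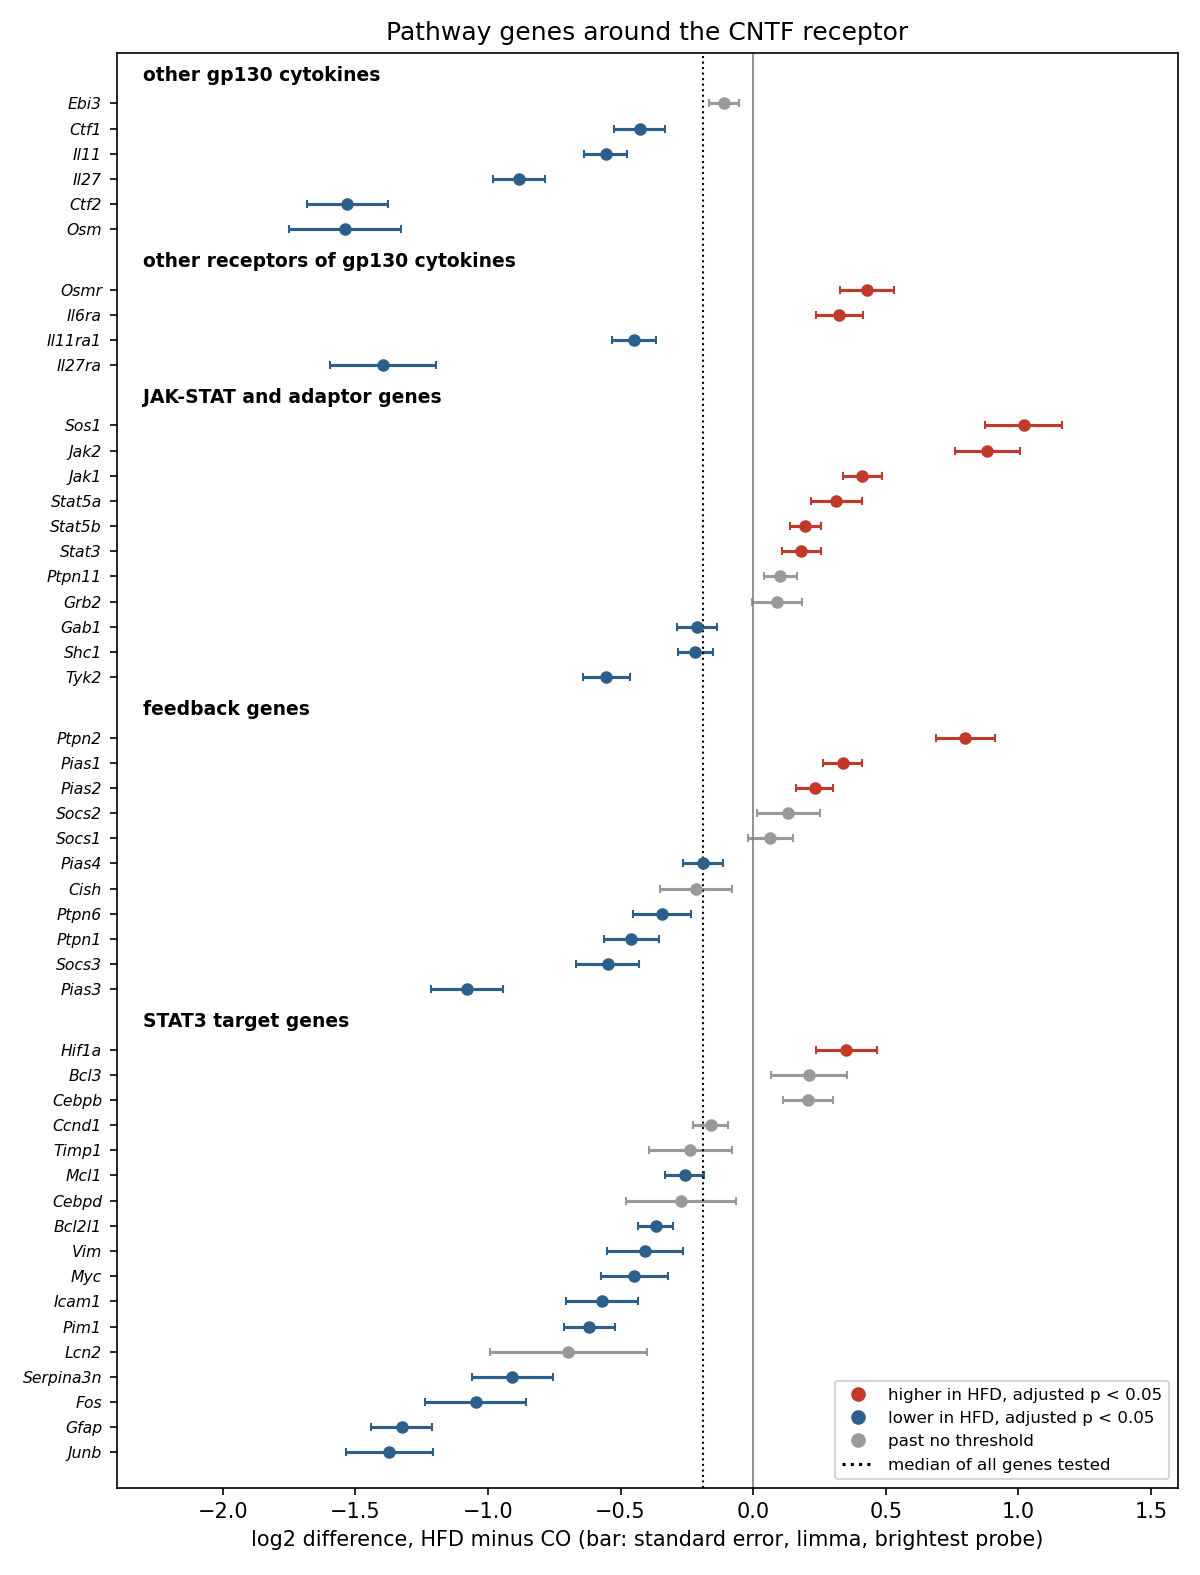
Log2 difference HFD minus CO (horizontal axis, with the standard error from limma) for the brightest probe of each of the 49 measured pathway genes, grouped by list, in red where higher, blue where lower and grey where the threshold was not passed. The dotted line marks the median of all genes tested, -0.19, and most cytokines and STAT3 target genes lie to its left while most JAK and STAT genes lie to its right.

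The genes whose levels followed each member most closely within the groups were sought among 15369 genes well above background on all 11 arrays, by Pearson correlation over the 11 arrays after each group's mean was taken off. For Cntfr they were Commd9 (0.96), Zkscan14 (0.92) and Tecpr2 (0.91). For Cntf they were Haus6 (0.96), Onecut2 (0.96) and Zfp873 (0.96), and for Lifr Adgrl4 (0.95), Map2 (0.95) and Col11a1 (0.95). Il6st was closest to Tmem67 (0.94), Ercc6 (0.94) and Cep192 (0.90), Lif to Lrrc38 (0.97), Nup214 (0.97) and Myo3b (0.97), and Clcf1 to Ikbke (0.96), Lrg1 (0.94) and Gstt1 (0.94). No member was among the closest genes of another. Measured the same way, Lif and Clcf1 correlated at 0.76, Cntf and Il6st at 0.62 and Lifr and Il6st at 0.51, while Cntfr correlated between -0.15 and -0.03 with the other 5 genes. The 11 arrays share their scaling, and these correlations are descriptions only.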

How the data were processed

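Hypothalamic RNA of 6 HFD and 5 CO male offspring was hybridized to Agilent mouse arrays with a single dye. The authors deposited scanner output, whose processed signal is an intensity on a linear scale from which the Feature Extraction software had subtracted background (version 10.8 in the submitters' processing notes, 10.7.3.1 in the file headers). No source used here names a normalization between arrays.

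Levels are log2 processed signals from which the array's own 75th percentile was subtracted, after removal of controls and of spots the software marked as outliers, with the remaining spots of a probe averaged. Each array had 43020 mouse spots. Of 39429 probes, 26369 matched 19987 genes by accession in a RefSeq table of GRCm38.p6, of which only names, overlaps and promoter sequences were used. A probe was tested if 5 or more of the 11 arrays showed it well above background, and the test was made by limma 3.58.1 in R 4.3.3, with statmod 1.5.0, two-sided, adjusted by Benjamini-Hochberg over 31790 probes. Genes were fitted separately on their brightest probe, adjusted over 17188 genes. Exact permutation and Mann-Whitney tests used Python 3.11.15, numpy 2.4.6, pandas 2.3.3 and scipy 1.17.1, and figures matplotlib 3.10.9. The fits and exact tests were tested on simulated data. Intervals are at 95%, and the number of arrays limits the precision. No pair of arrays held identical values.

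Every probe of the members is named. From each pathway list up to 4 genes with the smallest adjusted p are named, besides Socs3, Stat3, Jak1, Jak2 and Gfap, and the 3 genes closest to each member. The members and lists were chosen with earlier results of these data known, and 2 genes of the lists are not reported here. Alternatives were quantile, median and spike-in scaling, normexp correction with an offset of 50 (on the median spot signal, since the files used here carry no mean signal), other filters, slide as a random block, the replicate block, leaving out each array, the Rank Product test with 100 permutations, the exact Mann-Whitney test and averaging a gene's probes. Probe sequences and probe positions were not used here.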

Additional observations from a re-analysis of the deposited data

Results flagged for a closer look

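Among the 9 probes and the 21 named pathway genes, 60 groups of values were checked for a sample far from the rest of its group by Dixon's ratio, and 4 were marked, where chance marks about 1 in 20. The level of Lif in HFD replicate 1 was -5.83, below the other 5 HFD samples at -4.90 to -4.65. Osm in HFD replicate 3 was at -7.85, against -6.92 to -6.48 in the other HFD samples, and Tyk2 in the same sample was at -1.58, above the others at -2.08 to -1.91. Stat3 in CO replicate 2 was at 1.43, above the other 4 CO samples at 1.11 to 1.15. Without HFD replicate 1, the Lif difference was 2.64, and no member probe gained or lost its call.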

How the results depend on the processing

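Of 1056 values recomputed under alternatives, 983 kept their direction and side of the threshold (or, for counts, stayed within 1.5 times). Cntfr kept its call in every setting run, and the brightest Lifr probe in all but the Rank Product test. Differences below are HFD minus CO, and the cause of a change was not tested.

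Scaling to the spike-in probes, which lowers each difference by 0.66, turned Cntf probe A_55_P2086949 to -0.12 and Lifr probe A_55_P2159264 to -0.42. It took Cntf probe A_55_P2005275 to 0.15, Lifr probe A_51_P113182 to -0.93 and Il6st to -0.68. It gave 2 member probes higher and 5 lower, and 2238 of all probes higher and 25645 lower. It called 17 STAT3 target genes, where it called 89.3% of all genes tested. Of the named pathway genes it turned Il6ra to -0.34, Osmr to -0.23, Jak1 to -0.25, Stat3 to -0.48 and Pias1 to -0.32.

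With normexp correction, Cntf probe A_55_P2086949 was at 0.30, Lifr probe A_55_P2159264 at 0.15, Lif at 0.76 and Clcf1 at -0.28, none past the threshold. It gave 2 member probes higher and 1 lower, and 4487 of all probes higher and 5612 lower. It called 1 other cytokine, 1 other receptor, 6 JAK, STAT and adaptor genes, 3 feedback genes and 6 STAT3 target genes. Of all genes tested it called 38.5%. Within arrays, Cntf minus Lif was -0.46, Cntf minus Clcf1 0.58, Lifr minus Lif -0.013, Lifr minus Clcf1 1.03, Il6st minus Lif -0.87, Il6st minus Clcf1 0.17 and Lifr probe A_55_P2159259 minus A_55_P2159264 0.60. Quantile and median scaling moved the share of calls that were higher from 33.7% to 42.1 and 40.7%, the spike-in probes to 8.03% and normexp to 44.4%.

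The Rank Product test called 1 member probe higher and 1 lower, and 887 and 645 of all probes. It did not call Cntf (differences 0.54 and 0.82), the Lifr probes at 1.02 and 0.24, or Clcf1 (-0.75). With slide as a random block, Lifr probe A_51_P113182 passed at -0.28 (adjusted p = 0.0423 from limma). In that fit the correlation within slides was -0.04, and no slide held samples of both groups. When each array was left out in turn, that probe ran from -0.33 to -0.20, and no other member probe or pair changed its call. Lif could not be tested with a filter on all 11 arrays.

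Replicate numbers are shared by both groups, and same-numbered samples correlated at -0.11 to 0.30 after group means were removed. Samples of unlike number were not compared, so these values do not settle whether the numbers pair samples. With the replicate block, in which HFD replicate 6 carries no information on the difference, Cntfr was at -2.95, Cntf at 0.53 and 0.84 and Lif at 2.43. That block called 20136 probes against 21466 without it, and no member probe changed its call, while of the named pathway genes Stat3 lost it.

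Low signal limits Lif, Clcf1, Osm and Il27ra, whose spots were close to background. It also limits Ctf2 (25 to 34 units in HFD and 45 to 98 in CO samples) and Pias3 (40 to 62 in HFD and 64 to 116 in CO samples). The 11 arrays limit the rest, and for every difference diet cannot be told apart from the scan session.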
